A study of Mus musculus with 6 samples.

Results

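The 9 genes described here encode C-type lectins of myeloid cells: Clec12a, Clec4a2, Clec4d, Clec4e, Clec4n, Clec5a, Clec7a, Clec10a and Clec11a. They were taken by symbol from the 47643 genes of the deposited expression table, each symbol belonging to 1 gene ID, and were selected on measured values: the set was proposed because Clec12a had no read in the knockout libraries. The cells sequenced were L-GMP, leukaemic counterparts of the granulocyte-macrophage progenitor, sorted from C57BL/6 mice. The wild-type group (WT) has 3 libraries, and the knockout group (KO) has 3 libraries of cells labelled as lacking both Prkaa1 and Prkaa2, which encode the catalytic alpha subunits of the energy sensor AMP-activated protein kinase. According to the series title, the study tied AMPK to acetyl-CoA and to BET proteins in acute myeloid leukaemia. The labels used here do not give the leukaemia-driving oncogene, the way the deletion was made, the ages of the mice, or whether the replicates were separate mice, so p-values measure only library-to-library spread, part or all of which may be technical. The single comparison, KO against WT, is also the contrast from which the set was chosen. The levels of the 9 genes in it are therefore given as a description, without a test.

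C-type lectins carry a calcium-dependent or related fold that binds sugars, lipids, crystals or proteins, and those of phagocytes sense fungi, mycobacteria, dying cells and damaged tissue. Activating receptors of the group signal through an ITAM, a tyrosine motif that recruits the kinase SYK, either in their own tail or in the partner chains FcR gamma (Fcer1g) and DAP12 (Tyrobp), and then through CARD9, BCL10 and MALT1 to NF-kB. Inhibitory receptors carry an ITIM, a tyrosine motif that recruits the phosphatases SHP-1 (Ptpn6) and SHP-2 (Ptpn11). CLEC12A is also known as CLL-1, a surface antigen of human acute myeloid leukaemia blasts.

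Expression is given in FPKM, in which reads are divided by the length of the gene and a scaling factor of the library, so that levels can be set side by side between genes. The library factors were proportional to median-ratio size factors, which follow the middle gene and not the read total (relative values 0.999883 to 1.00009). Library depth, as whole reads recovered from those values, ranged from 11390372 to 16415989 in WT and from 12372407 to 14025430 in KO. FPKM values summed to 463683 to 475654 per WT library and 649611 to 653819 per KO library. The 10 highest genes of each library held 10.5% to 10.7% of that sum in WT and 31.3% to 31.9% in KO. Rescaling to equal sums therefore depends partly on those few genes. The median log2 difference of all genes tested was -0.02 as deposited and -0.45 once the libraries were rescaled to equal sums. Prkaa1 measured 2.01, 2.20 and 1.80 FPKM in WT and 1.11, 0.735 and 0.548 in KO, every KO value being lower, whereas Prkaa2 had 2 reads in WT and 4 in KO, so that its loss was not detectable at this depth. Of the granule genes that mark granulocyte-monocyte progenitors, Mpo, Elane, Prtn3 and Ctsg were read at 159, 1758, 472 and 5423 FPKM in WT and at 442, 7923, 2056 and 6362 in KO, with Ctsg turning lower in KO (log2 difference -0.24) when libraries were set at equal sums. Of the surface markers, Cd34 averaged 27.8 FPKM in WT and 3.51 in KO, and Kit 0.251 and 1.43.

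All 9 lectin genes were lower in each of the KO libraries than in any WT library. Of the 10714 genes with a WT mean of at least 0.5 FPKM, as all 9 had, 45.9% showed the same separation. No read was found in any KO library for 3 of the 9 (Clec12a, Clec4n and Clec7a), where Clec12a counts by the rule that chose the set. The share over those 10714 genes was 5.81%, and it was not matched to the low WT levels of Clec4n and Clec7a. The other 6 lectin genes had a WT mean between 1.36 and 19.1 times their KO mean. The sum of the 9 genes was 107, 111 and 111 FPKM in WT and 18.2, 18.7 and 18.6 FPKM in KO, with no overlap, from 15309 reads in WT and 2361 in KO. Because the samples are bulk RNA, a smaller share of cells that make a receptor and less of its RNA per cell cannot be told apart.

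**Figure D1:**
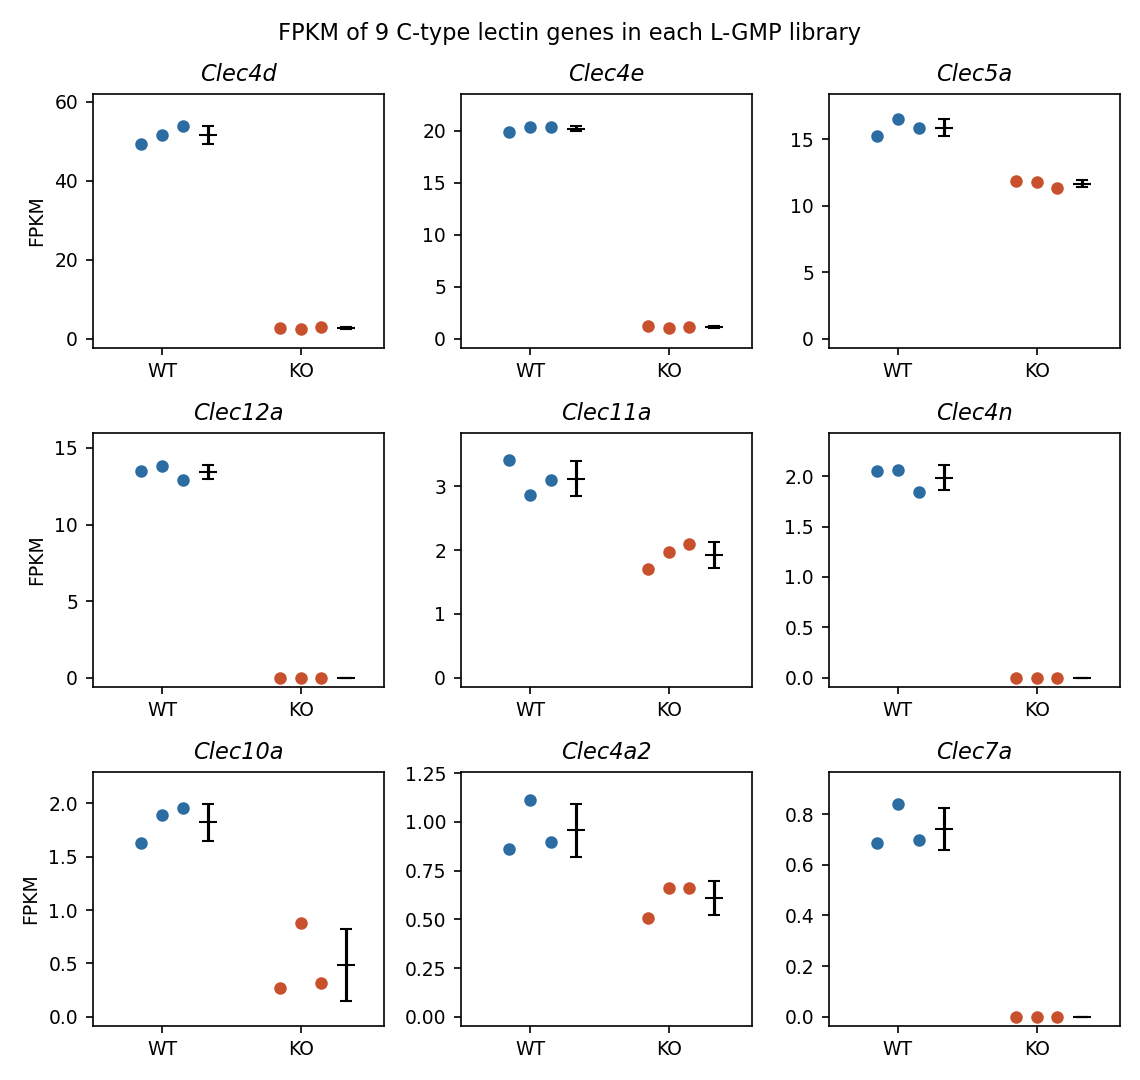
FPKM of each of the 9 lectin genes (vertical axis, linear and scaled per gene) in the WT libraries (blue) and KO libraries (red), replicates 1 to 3 from left to right, with the mean and SD in black (n = 3). Every KO point lies below every WT point of the same gene, and Clec12a, Clec4n and Clec7a lie at 0 in KO.

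The promoters of 3 genes with large differences (Clec12a, Clec4d and Clec4e) and of Clec5a, the gene with the smallest relative difference, are shown because the 9 genes were lower together. Each is the stretch from 250 bases before to 50 bases after the RefSeq transcript start on GRCm38.p6, written 5' to 3' on the strand of the gene. They lie at chr6:129349994-129350293 (plus strand) for Clec12a, chr6:123261857-123262156 (plus) for Clec4d, chr6:123289822-123290121 (minus) for Clec4e and chr6:40585756-40586055 (minus) for Clec5a. The Clec12a stretch lies inside the GENCODE M21 gene body, which begins at 129342691, so the 2 annotations place the start differently. The same holds for Clec4a2, whose promoter is counted below. Capitals mark matches, on either strand, to GAGGAA, the core recognised by the myeloid factor PU.1, to TTNCNNAA, a loosely specified C/EBP site, or to TGANTCA, an AP-1 site.
Clec12a: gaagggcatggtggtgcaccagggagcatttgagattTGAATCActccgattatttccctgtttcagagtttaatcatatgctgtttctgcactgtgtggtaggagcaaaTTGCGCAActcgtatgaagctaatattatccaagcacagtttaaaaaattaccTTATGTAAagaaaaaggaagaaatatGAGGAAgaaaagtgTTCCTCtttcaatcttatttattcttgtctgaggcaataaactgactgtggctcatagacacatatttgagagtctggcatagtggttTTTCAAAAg
Clec4d: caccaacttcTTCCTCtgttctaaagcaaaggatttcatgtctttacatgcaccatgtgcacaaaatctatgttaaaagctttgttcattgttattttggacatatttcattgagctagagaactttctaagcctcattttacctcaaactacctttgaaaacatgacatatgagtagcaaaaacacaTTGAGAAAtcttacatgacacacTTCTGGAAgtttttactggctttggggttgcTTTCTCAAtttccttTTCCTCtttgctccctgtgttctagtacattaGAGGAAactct
Clec4e: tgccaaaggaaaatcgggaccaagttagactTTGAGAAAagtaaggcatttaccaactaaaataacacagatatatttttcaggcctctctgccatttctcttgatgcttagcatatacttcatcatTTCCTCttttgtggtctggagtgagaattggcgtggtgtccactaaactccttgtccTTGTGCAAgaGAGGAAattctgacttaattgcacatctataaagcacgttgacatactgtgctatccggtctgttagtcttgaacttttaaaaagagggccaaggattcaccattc
Clec5a: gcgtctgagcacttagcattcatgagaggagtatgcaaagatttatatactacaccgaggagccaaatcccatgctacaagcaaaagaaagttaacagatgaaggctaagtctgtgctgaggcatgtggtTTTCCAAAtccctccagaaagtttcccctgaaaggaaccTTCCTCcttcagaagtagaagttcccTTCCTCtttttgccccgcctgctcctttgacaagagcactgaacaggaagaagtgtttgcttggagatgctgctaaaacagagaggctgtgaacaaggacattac

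RefSeq promoters were found for 7 of the 9 genes, all but Clec4n and Clec10a. GAGGAA occurred in 6 of the 7 (not in Clec4a2) and in 28.3% of all 32851 promoter sequences of that length, and TTNCNNAA in 6 of the 7 (not in Clec7a) and in 40.7%. TGANTCA occurred in 2 of the 7, Clec12a and Clec4a2, and in 7.81% of all sequences. The Clec12a and Clec5a promoters both hold GAGGAA and TTNCNNAA. Whether any of these matches bears on the KO levels was not tested. In the Clec12a promoter the C/EBP match that begins 140 bases before the start is the full palindrome TTGCGCAA, which also matches TTNCNNAA. It was found in 0.183% of all promoter sequences and in none of the other 6, and was searched for only after the sequence had been read. The promoters of the 7 genes held 36.0% to 54.0% G and C, against a median of 52.7% over all promoters. A match is a run of letters, not evidence that a factor binds there.

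Among the inhibitory receptors, Clec12a (ENSMUSG00000053063), which carries an ITIM and dampens responses to uric acid crystals and dead cells, was abundant in WT and unread in KO. It measured 13.5, 13.8 and 12.9 FPKM in WT replicates 1, 2 and 3, from 950, 1381 and 1009 reads, and had no read in the KO libraries. The WT mean was 13.4 ± 0.440 FPKM (SD, n = 3). Set against 3 reads over the KO group, or 0.0146 FPKM, the level was at least 918-fold lower in KO. The gene lies on chromosome 6 at 129342691 to 129365303 (mm10, plus strand). Clec4a2 (ENSMUSG00000030148), or DCIR, the other receptor with an ITIM, was scarce in both groups. It measured 0.860, 1.11 and 0.897 FPKM in WT and 0.508, 0.660 and 0.660 in KO, which left the KO mean at 63.6% of the WT mean. These values rest on 128 reads in WT and 66 in KO, and the groups lay apart by less than the range within WT. Clec4a2 has close sequence relatives beside it (Clec4a1, Clec4a3, Clec4b1), so the assignment of its reads is uncertain.

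The receptors that pair with FcR gamma included the most abundant of the 9 genes in WT. Clec4d (ENSMUSG00000030144), which encodes MCL and binds the mycobacterial glycolipid cord factor, measured 49.4, 51.6 and 53.9 FPKM in WT and 2.69, 2.36 and 3.05 in KO. Clec4e (ENSMUSG00000030142) encodes Mincle, which forms a complex with MCL and senses cord factor and the nuclear protein SAP130 of dead cells. It measured 19.9, 20.4 and 20.3 FPKM in WT and 1.23, 1.04 and 1.09 in KO. The WT mean was 19.1 times the KO mean for Clec4d and 18.0 times for Clec4e, so this pair, whose products act together, differed by nearly the same factor. Clec4d stood to Clec4e in a ratio of 2.55 ± 0.0863 in WT and 2.42 ± 0.330 in KO (SD, n = 3), a difference smaller than the KO spread. Clec4n (ENSMUSG00000023349), or Dectin-2, the receptor for fungal mannans, was much scarcer than Clec4d and Clec4e. It measured 2.05, 2.06 and 1.85 FPKM in WT, from 127 reads. None of the KO libraries held a read, which puts KO at least 34.9-fold lower.

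Of the 2 receptors that reach SYK in other ways, Clec5a kept most of its level in KO and Clec7a was unread there. Clec5a (ENSMUSG00000029915), or MDL-1, which signals through DAP12, measured 15.2, 16.5 and 15.8 FPKM in WT and 11.8, 11.8 and 11.4 in KO. Its KO mean was 73.6% of the WT mean, the smallest relative difference among the 9, although the groups did not overlap. With libraries at equal sums it was 53.1%. Clec7a (ENSMUSG00000079293), or Dectin-1, which binds fungal beta-glucan and carries its own tyrosine motif, measured 0.686, 0.838 and 0.699 FPKM in WT, from 89 reads. Without a read in any KO library, it was at least 24.2-fold lower there. The GENCODE M21 annotation types Clec7a as a polymorphic pseudogene, while the other 8 genes are typed as protein-coding.

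Clec10a (ENSMUSG00000000318), or MGL1, an endocytic receptor for galactose and N-acetylgalactosamine, varied most between the KO libraries among the 6 genes read there. It measured 1.63, 1.89 and 1.96 FPKM in WT and 0.270, 0.877 and 0.320 in KO. KO replicate 2 stood above the other two KO libraries, with 29 reads against 10 and 12, but below every WT library. The coefficient of variation was 69.0% in KO and 9.48% in WT. Clec11a (ENSMUSG00000004473) differs in kind, since its product is a secreted growth factor for blood and bone progenitors and not a receptor. It measured 3.41, 2.86 and 3.10 FPKM in WT and 1.71, 1.97 and 2.10 in KO, a KO mean of 61.8% of the WT mean.

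**Figure D2:**
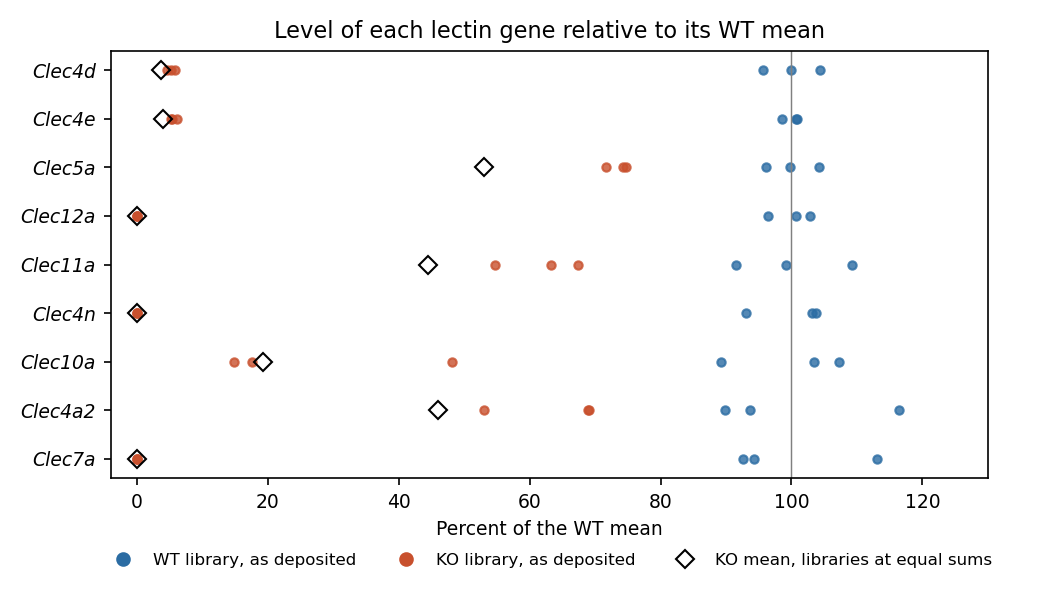
Each library's FPKM of the 9 genes as a percentage of that gene's WT mean (horizontal axis, linear), with WT libraries in blue, KO libraries in red and, as open diamonds, the KO mean after all libraries were rescaled to equal sums. Clec4d and Clec4e lie near 5% of WT, Clec5a, Clec11a and Clec4a2 between 50% and 75%, and rescaling moves the KO means that are above 0 further left.

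The order of the levels differed between the groups. In WT it ran Clec4d, Clec4e, Clec5a, Clec12a, Clec11a, Clec4n, Clec10a, Clec4a2 and Clec7a, and the library ranges of neighbours in that order overlapped only for Clec4n and Clec10a. In KO it ran Clec5a, Clec4d, Clec11a, Clec4e, Clec4a2 and Clec10a, the last 2 overlapping, followed by the 3 unread genes. Clec4d and Clec4e made up 65.4 ± 0.977% of the summed FPKM of the 9 genes in WT and 20.6 ± 2.15% in KO, and Clec5a made up 14.5 ± 0.368% and 63.0 ± 1.88% (SD, n = 3). The WT libraries thus read mainly the MCL and Mincle pair, and the KO libraries mainly the DAP12-coupled Clec5a. The median difference on the log2(FPKM + 1) scale was -0.94 over all 9, the value of Clec10a. Setting the unread genes at their lower bounds keeps each on its side of that value, so the median stays the same.

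On mouse chromosome 6 the members form clusters with their relatives. Clec4a2, Clec4n, Clec4d and Clec4e lie within 183 kb, at 123106428 to 123289870 (mm10), and Clec12a and Clec7a within 130.1 kb, at 129342691 to 129472779. In the first stretch the remaining coding gene, Clec4b2, was unread in all 6 libraries. Clec4n, with 127 reads in WT and none in KO, lies beside Clec4d, with 3713 in WT and 161 in KO. Their unlike WT read numbers limit a comparison of the KO reads. Relative differences within the cluster ranged from Clec4a2, at 63.6% of WT, to Clec4n, at least 34.9-fold lower. Around Clec12a, the coding genes within 100 kb were Cd69, 4922502D21Rik, Clec12b, Clec1b, Clec9a and Clec1a. Cd69, an activation antigen of lymphocytes and itself a C-type lectin, measured 8.76, 9.39 and 8.81 FPKM in WT and 0.612, 0.512 and 0.736 in KO, which was 14.5-fold lower (log2 difference -2.63, SE 0.08, limma adjusted p = 1.05e-07). Clec1b, the CLEC-2 receptor of platelets, had 24 reads in WT and 0 in KO. Clec12b and Clec9a had 1 read each, in WT, and Clec1a and 4922502D21Rik none. Of these neighbours only Cd69 and Clec1b had more than 1 read in WT, and both were lower or unread in KO.

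**Figure D3:**
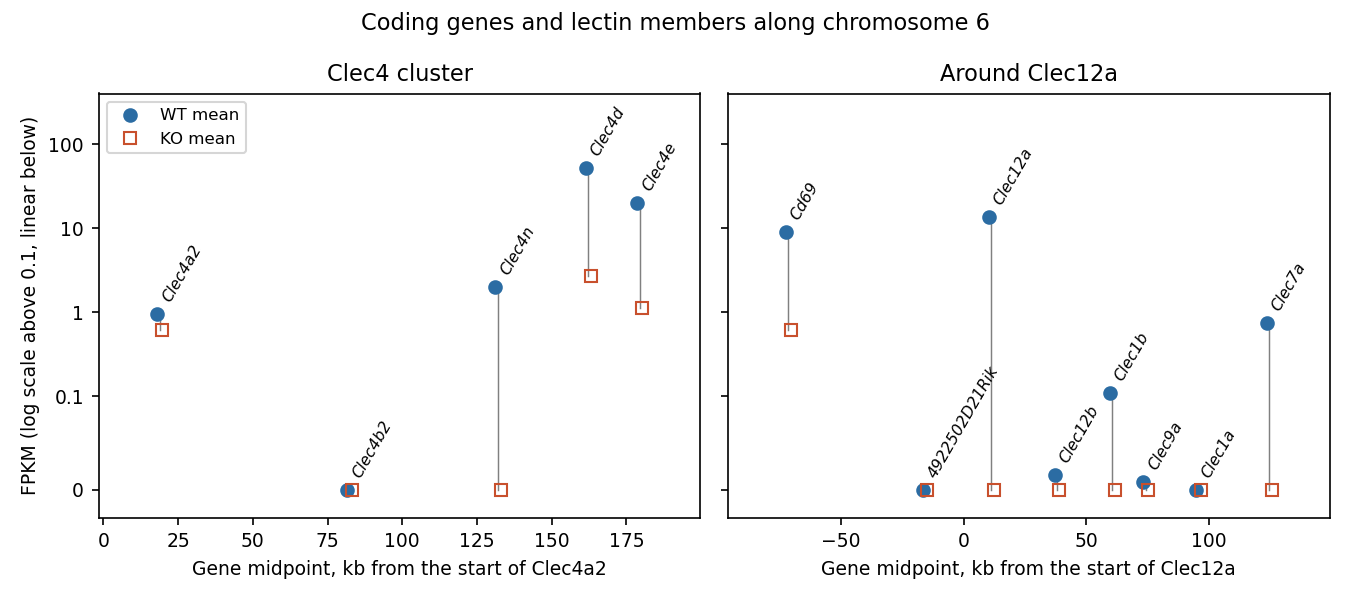
Mean FPKM in WT (blue circles) and KO (open red squares) of the coding genes and lectin members along 2 stretches of chromosome 6, plotted by the distance of the gene's midpoint in kb from the start of Clec4a2 (left) or Clec12a (right); the vertical axis is logarithmic above 0.1 FPKM and linear below. Clec4a2, Clec4n, Clec4d, Clec4e, Cd69, Clec12a and Clec7a are read in WT and lower or at 0 in KO, while the other genes shown lie near or at 0 in both groups.

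The 5 tested genes whose values were closest to those of Clec12a over the 6 libraries, by Euclidean distance on log2(FPKM + 1), lay on other chromosomes. They were Klhl41 (distance 0.13), the protease-activated receptor gene F2rl2 (0.26), Gm12827 (0.27), Gm12863 (0.33) and Mst1 (0.34). Their WT means ran from 11.7 FPKM in Mst1 to 14.5 in F2rl2. The first 4 had no KO read and Mst1 had 1. Because these genes were picked for closeness to the Clec12a values, such levels in WT and KO follow from the pick.

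Other genes with a C-type lectin domain were mostly lower in KO too, with large exceptions. Of 82 such genes in the table, 32 were above 0 in a library and 13 reached the minimum of 1 FPKM. Of these 13, 9 fell, 3 rose and 1 (Layn) did not pass, with a median log2 difference of -1.66, or -1.63 with the genes at 0 in a group set at their bounds. Of all 9108 genes tested, 78.4% were called in either direction, 40.4% lower and 38% higher. Mgl2, the close relative of Clec10a next to it on chromosome 11, 18.6 kb away with no coding gene between them, had the largest fall. It measured 20.3, 21.6 and 24.0 FPKM in WT and was unread in the KO libraries (at least 569-fold lower, log2 difference -4.52, SE 0.08, limma adjusted p = 1.08e-08). Because Clec10a and Mgl2 are alike in sequence, reads could be shared out between them, and the values of both are uncertain for that reason. Cd302, an endocytic lectin of monocytes and dendritic cells, fell from 33.4 ± 1.35 to 6.86 ± 0.858 FPKM (SD, n = 3, limma adjusted p = 3.20e-07). Among the rises, Prg2 and Prg3, the major basic proteins of eosinophil granules, which have a C-type lectin fold, went from 0.0282 to 299 FPKM and from 0 to 7.17 FPKM. Clec2d, the ligand of an inhibitory receptor of natural killer cells, was unread in WT and measured 2.38, 2.53 and 5.10 FPKM in KO (a rise of at least 60.6-fold, limma adjusted p = 8.08e-05). Without KO replicate 3 its mean fell under 1 FPKM and it was not tested, leaving 2 of 12 genes higher and 10 lower.

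Of the partner chains of the activating receptors, Fcer1g rose, while the direction of Tyrobp depended on the scaling. Fcer1g, the FcR gamma chain on which Clec4d, Clec4e and Clec4n depend, was read at 1988, 2018 and 2083 FPKM in WT and 3054, 3179 and 3098 in KO, a rise of 1.53-fold (log2 difference 0.62, SE 0.02, limma adjusted p = 2.73e-07). The log2 difference was 0.15 with libraries at equal sums and 0.17 with quantile normalization, still called. Tyrobp, the DAP12 partner of Clec5a, was read at 1596, 1649 and 1682 FPKM in WT and 1714, 1663 and 1699 in KO, and did not pass (log2 difference 0.04, limma adjusted p = 0.118). It was called lower with libraries at equal sums (-0.43, limma adjusted p = 3.80e-07), with quantile normalization (-0.22) and by limma-voom on recovered reads (-0.22), and higher without WT replicate 3 (0.06, limma adjusted p = 0.0403). Both chains thus lay far above any lectin of the set in both groups. The kinase Syk was at 1.40 ± 0.0529 FPKM in WT and 2.02 ± 0.0949 in KO (SD, n = 3, limma adjusted p = 0.00398), a call lost with libraries at equal sums (log2 difference 0.04, adjusted p = 0.647). Its adaptor Card9 fell from 6.08 ± 0.0374 to 2.17 ± 0.104 FPKM (limma adjusted p = 2.06e-06), while Malt1, the paracaspase downstream of it, rose from 0.597 ± 0.0237 to 3.03 ± 0.308 FPKM (limma adjusted p = 4.75e-06). Of the 29 adaptors and activating kinases, 22 were tested: 14 rose, 4 fell (Btk, Card9, Chuk and Tab1) and 4 did not pass, with a median log2 difference of 0.29. With libraries at equal sums, 8 rose and 10 fell. The shares over all genes tested were 38% higher and 40.4% lower as deposited. At equal sums, 2069 of all 9108 genes tested were called higher and 5376 lower. The adaptor Hcst (DAP10) and the kinase Fyn were the other large rises, of 2.80-fold and 6.73-fold, and Btk the largest fall, of 3.95-fold. Without KO replicate 1 or 2 Fyn fell under the minimum of 1 FPKM and was not tested.

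Among the phosphatases and other brakes, 4 of 11 tested genes rose, 5 fell and 2 did not pass, with a median log2 difference of -0.05 (2 rose and 8 fell with libraries at equal sums). Over all genes tested, 38% were higher and 40.4% lower as deposited. At equal sums 2069 of 9108 were higher and 5376 lower. Ptpn6, the SHP-1 recruited by Clec12a, was at 100.3 ± 1.597 FPKM in WT and 109.7 ± 3.73 in KO (SD, n = 3, limma adjusted p = 0.00795), a log2 difference of 0.13 that turned to -0.34 with libraries at equal sums. Ptpn11, or SHP-2, rose from 6.12 ± 0.178 to 9.80 ± 0.482 FPKM (limma adjusted p = 4.84e-05), a log2 difference of 0.60 that was 0.19 with libraries at equal sums. Inpp5d, the lipid phosphatase SHIP-1, had a log2 difference of 0.35 (limma adjusted p = 0.00233), which turned to -0.07 with libraries at equal sums. The ubiquitin ligase Cbl rose from 0.968 to 2.42 FPKM. The largest falls were those of Ubash3a, a suppressor of lymphocyte receptor signalling, from 24.4 ± 0.993 to 1.82 ± 0.407 FPKM, and of the docking proteins Dok2 and Dok1, by 5.58-fold and 1.61-fold.

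Of the pathway's transcription factors, 8 of 9 tested genes rose and 1 fell, with a median log2 difference of 1.15 (6 rose and 2 fell with libraries at equal sums). For this list and the next, the shares over all genes tested were 38% higher and 40.4% lower as deposited. At equal sums 2069 of 9108 genes were higher and 5376 lower. Egr1, an immediate-early factor, rose from 0.478 ± 0.222 to 12.96 ± 0.269 FPKM, Irf5 from 0.334 ± 0.116 to 6.97 ± 0.136 FPKM, and Nfkbia, the NF-kB inhibitor that NF-kB itself induces, from 55.1 ± 0.728 to 276 ± 6.10 FPKM (SD, n = 3). Nfkb1, the p50 precursor, fell from 12.1 ± 0.359 to 2.75 ± 0.0613 FPKM (limma adjusted p = 1.23e-07). Of 7 tested cytokines and other outputs, 2 rose, 4 fell and 1 did not pass, with a median log2 difference of -0.45 (1 rose and 6 fell with libraries at equal sums). Tnf rose 5.67-fold and Pycard, an inflammasome adaptor, 1.24-fold, the latter turning to a log2 difference of -0.16 with libraries at equal sums. Il12a measured 7.68 ± 1.61 FPKM in WT and was unread in KO (a fall of at least 162-fold), and the chemokines Ccl3 and Ccl4 fell from 53.5 to 11.6 and from 4.93 to 1.79 FPKM.

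Co-receptors and related myeloid receptors went both ways, with 5 of 11 tested genes higher, 5 lower and 1 not passing, a median log2 difference of -6.77e-05 (3 higher and 7 lower with libraries at equal sums). Over all genes tested, 38% were higher and 40.4% lower as deposited. At equal sums 2069 of 9108 were higher and 5376 lower. Lgals3, the galectin that associates with Dectin-1, rose from 132 ± 4.95 to 1094.5 ± 3.53 FPKM, and the receptors Cd300lf and Cd300a rose 10.04-fold and 1.84-fold, Cd300a with a log2 difference of 0.78 that was 0.38 with libraries at equal sums. Cd37, a tetraspanin that holds Dectin-1 at the membrane, fell 2.56-fold and 1.93-fold under its 2 gene IDs, and the Fc receptor genes Fcgr2b and Fcgr3 fell 3.56-fold and 1.93-fold. In none of these 5 lists of partners did all tested genes move the same way.

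**Figure D4:**
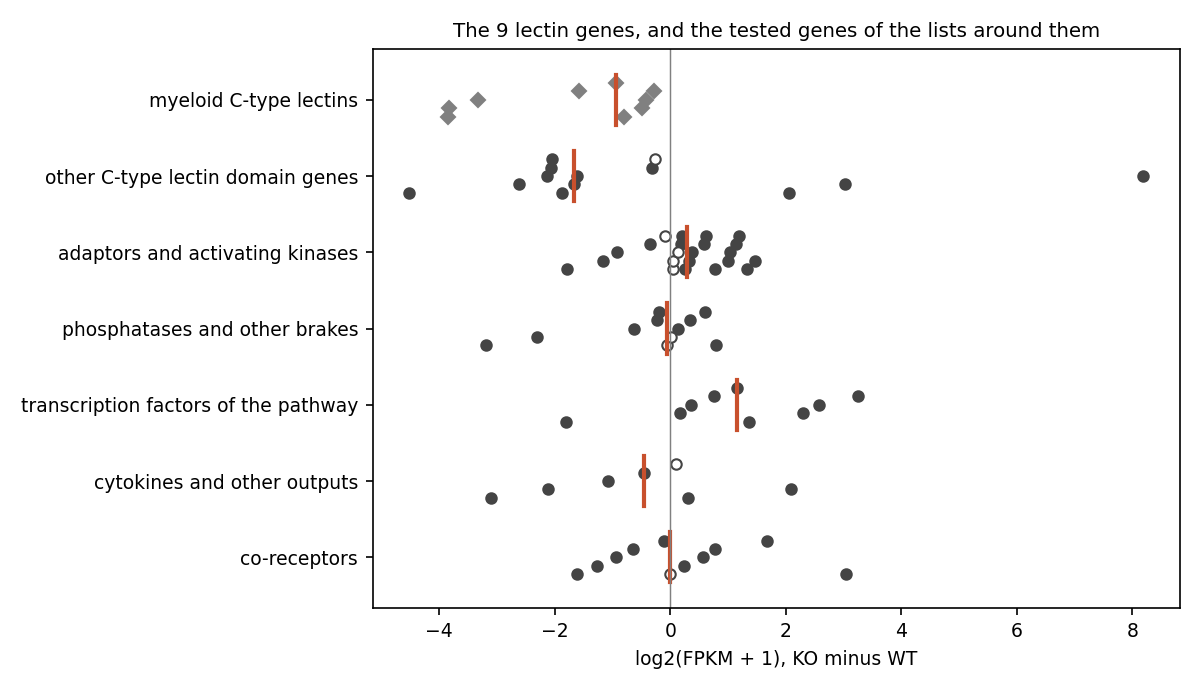
Difference between KO and WT on the log2(FPKM + 1) scale (horizontal axis) for all 9 lectin genes (grey diamonds, not tested) and for the tested genes of 6 lists around them, 1 circle per gene, filled where the limma adjusted p was under 0.05 and open where it was not, with the median of each list as a red line. The 9 genes all lie below 0 with a median of -0.94, the other lectin domain genes have a median of -1.66, and the medians of the other lists run from -0.45 to 1.15. The first median has no minimum level, while the others cover genes averaging 1 FPKM or more. At a minimum of 0.1 FPKM, which all 9 genes pass, the other lectin domain genes had a median of -0.58.

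Markers of other cell types also differed between the groups, in both directions, and their part in these results was not tested. Shares over all genes tested, for comparison with the counts below, were 38% higher and 40.4% lower in KO. Monocyte markers summed to 403 to 418 FPKM per WT library and 113 to 125 per KO library, with 3 of 5 tested members lower, 2 higher, Klf4 at 0 in WT, and Ccr2 and F13a1 at 0 in KO. Neutrophil markers went the other way, from 36.6 to 38.8 FPKM in WT to 4935 to 4994 in KO, with 6 of 6 tested members higher, Ly6g and Retnlg at 0 in WT and Mmp9 at 0 in KO. The basophil, mast cell and eosinophil list rose in 7 of 7 tested members (29.8 to 36.2 FPKM in WT, 549 to 579 in KO), with Il5ra and Cma1 at 0 in both groups and Prss34, Epx, Fcer1a and Cd200r3 at 0 in WT. Of the erythroid list, 5 of 6 tested members rose (10.3 to 12.02 FPKM against 64.2 to 70.9). In WT 3 members were at 0, Gata1 and Epor among them, and in KO Alas2 was. Dendritic cell markers summed to 25.4 to 27.7 FPKM in WT and 98.4 to 106 in KO, with 2 of 2 tested members higher, Ccr7 at 0 in both groups, Zbtb46, Siglech and Batf3 at 0 in WT, and Flt3, Itgax and Xcr1 at 0 in KO. Of the macrophage list only Adgre1 was tested, and it was higher (3.12 to 3.53 FPKM for the list against 10.2 to 11.003), with C1qa, C1qc and Mrc1 at 0 in both groups, C1qb, Marco and Vsig4 at 0 in WT and Mertk at 0 in KO. In the progenitor list 6 of 10 tested members were higher and 4 lower, with sums of 7854 to 8152 FPKM in WT and 16722 to 17018 in KO. Lymphoid lists had 1 or 2 tested members each. T cell markers summed to 2.12 to 2.26 FPKM in WT and 0.709 to 1.23 in KO, with Cd3e, Cd3g, Cd8a and Trac at 0 in both. B cell markers summed to 84.3 to 91.7 and 55.9 to 58.2 FPKM, with Pax5 among the members at 0 in both. Natural killer markers summed to 51.6 to 54.7 and 115 to 116 FPKM, with Ncr1, Klrb1c, Klrd1, Prf1 and Gzmb at 0 in both.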

How the data were processed

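Per the submitters' processing notes, CASAVA, bcl2fastq, STAR 2.5.3a, DESeq2 1.18.1 and mm10 were used; the read counter and its strand setting: not given in the sources used here. Per the labels' protocols, Smart-seq2 cDNA went into Nextera XT libraries. The authors deposited 1 table of FPKM values for 6 libraries. Whole reads were recovered from it: 16481 genes at the GENCODE M21 exonic length (tolerance 0.001 read), all 9 lectins among them, and 4650 at the smallest length that fits. None of the 9 shares exonic bases with another gene. Where a group had no read, the fold is a bound against 3 reads over that group, which covers counting error only. The 9108 genes averaging 1 FPKM or more were tested on log2(FPKM + 1), a scale that understates changes of low genes, with limma 3.58.1 in R 4.3.3 (trended empirical Bayes, two-sided, Benjamini-Hochberg over all of them, threshold 0.05). The fit was also run on simulated data in which only a small share of genes differed. That run does not check calls in data where most genes are called, as here. Of 179 entries in 6 pathway lists, 177 were in the table; the co-receptor list's 14 symbols have 16 gene IDs. Markers came from 10 lists. Named were the 9 lectins, the main adaptors and phosphatases, and the 3 largest called changes per direction and list. The lectins and lists were chosen with earlier results of these data known. Alternatives were other pseudocounts, minimum levels, scalings, limma-voom on recovered reads, the replicate block and leaving out each library. Promoter sequences came from RefSeq (GRCm38.p6).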

Additional observations from a re-analysis of the deposited data

How the results depend on the processing

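Under all 15 alternatives each of the 9 lectin genes was lower in every KO library than in any WT library used. All 135 recomputed log2 differences were below 0. For most alternatives this was fixed in advance. Other minimum levels and the replicate block leave these values as they are. Other pseudocounts keep the order of the libraries, and leaving out a library cannot undo a complete separation. Only equal sums, quantile normalization and limma-voom could have changed the outcome. Of the 135 differences, 33, all under other pseudocounts, equal sums or limma-voom, moved by more than 1 SD between replicates. A minimum mean of 5 FPKM left fewer genes to test and so fewer calls: 4455 in all, 5 other lectin domain genes, 10 adaptors and kinases and 4 transcription factors. Among all genes called, 48.5% were higher as deposited, 27.8% with libraries at equal sums and 36.2% by limma-voom on recovered reads. Signs turned with equal sums for Tyrobp (-0.43), Ptpn6 (-0.34), Pycard (-0.16) and Inpp5d (-0.075), with limma-voom for Tyrobp (-0.22) and Ptpn6 (-0.14), and with quantile normalization for Tyrobp (-0.22); apart from the shift of all genes between scalings, the cause was not tested. No pairing by the numbers in the titles was seen: same-numbered WT and KO libraries had correlations of their deviations from -0.0166 to 0.0095. Differently numbered libraries had correlations from -0.0168 to 0.0278. With 3 libraries per group this check cannot exclude a pairing. With the replicate block 7040 genes were called, against 7140 without it. The 3 lectins under 1 FPKM on average rest on 89 to 128 WT reads.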
